A study of Mus musculus with 74 samples.

Results

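The genes described here encode the enzymes that add or remove acetyl and methyl groups on histones and methyl groups on DNA. They are the histone deacetylases (Hdac), the NAD-dependent deacylases called sirtuins (Sirt), the lysine acetyltransferases (Kat), methyltransferases (Kmt) and demethylases (Kdm), the Tet dioxygenases and the DNA methyltransferases (Dnmt). A gene was taken when it was protein-coding, its symbol began with a class name followed by a number, and its mean read count was at least 10 over the 8 whole dorsal root ganglion (DRG) libraries. This gave 57 genes (17 Kdm, 11 Hdac, 8 Kat, 8 Kmt, 7 Sirt, 3 Tet and 3 Dnmt) of the 53379 counted. Of 69 matching symbols 12 were left out, 9 because they were not protein-coding and 3 (Dnmt3c, Dnmt3l and Kdm5d) because their mean count was under 10.

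Histone acetylation is in general found at active promoters and enhancers, and deacetylases remove it. Histone methylation has different readings at different lysines, and each lysine has its own writers and erasers. DNA methylation at promoters usually goes with silence, and the Tet enzymes oxidise methylcytosine to hydroxymethylcytosine, a mark that neurons hold in large amounts. In sensory neurons of the DRG these enzymes have been studied because cutting the peripheral axon is followed by a broad change in transcription, while cutting the central axon in the spinal cord is followed by little regrowth.

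The study sequenced RNA of the L4 DRG of mice after spinal cord injury (SCI), a dorsal hemisection at T9/10, or sciatic nerve injury (SNI), a crush of the nerve. The whole DRG libraries came from wild type C57BL/6 females aged 10 to 12 weeks, 4 uninjured and 4 taken 1 day after SCI. The sorted libraries came from mice of the Thy1YFP16 strain, labelled female and aged 10 to 20 weeks, in which the Thy1 promoter drives YFP in large-diameter sensory neurons, including those that ascend the dorsal columns. YFP-positive cells of the dissociated L4 DRG were sorted (FACS) into wells of about 100 cells, 3 wells per mouse, from 6 naive mice and from 4 mice each at 1 day and 3 days after SNI and after SCI. All the injured sorted groups were compared with the same naive mice, of which 3 are labelled with day 1 and 3 with day 3. The wells are technical replicates and were summed per mouse, so n counts mice throughout. Whether mice shared a litter or a surgery day is not given in the sources used here.

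Whole DRG libraries held 21959030 to 44493319 reads on genes, and sorted mice held 30518187 to 83599972. The sorted wells fell into 2 kinds. In 20 of 66 wells the 9 genes of a list for satellite glia and Schwann cells took 3.28 to 14.2% of the reads, against 0.176 to 1.29% in the other 46, and a list of 8 pan-neuronal genes had a median share of 0.0460% against 3.39%. These wells are called glia-rich and the others neuronal, by the glia list alone. The neuron list ran from 0.0088 to 2.05% in the former and from 1.34 to 4.32% in the latter. A list of 4 fibroblast genes took 4.34, 5.79 and 2.94% in the 3 glia-rich wells of SCI 3d mouse 3. The glia list took 4.14, 3.28 and 4.71% there. In neuronal wells the fibroblast list took at most 0.191%. The 3 glia-rich wells of SNI 3d mouse 3 had 2.05, 1.74 and 0.0105% on the neuron list. Neuronal wells also differed among themselves: a list of 4 nociceptor genes took 0.0002 to 3.51% of their reads (median 0.0031%). It took 2.74% in the only neuronal well of naive mouse 5 and 3.51% in a well of SNI 1d mouse 4. Glia-rich wells came from every group (6 of 18 naive wells, 3 of 12 at SNI 1d, 4 of 12 at SNI 3d, 3 of 12 at SCI 1d and 4 of 12 at SCI 3d), and mouse 3 at SNI 3d and mouse 3 at SCI 3d had no other well. Reads on 4 Y-linked genes were present in 9 of the 22 sorted mice (5237 to 15755 reads, against 0 to 25 in the others), although all are labelled female. The labels also part the sorted mice into a set named FACS (naive mice 1 to 4, the other groups' mice 1 and 2) and a set named FACS2018. For most of the genes described in sorted cells, values from neuronal wells alone are given as well.

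In uninjured whole DRG Hdac2 and Hdac11 had the highest levels of the 57 genes, while the other Hdac genes were spread over the order down to Hdac1, 55th. Levels are given as CPM, the reads of a gene over the library total and scaled by the trimmed mean of M-values (TMM), and between genes per kilobase of exon. Hdac2, a class I deacetylase (chr10:36974544-37001889, plus strand, GRCm38), had 34.8 CPM per kb (155.9 ± 10.7 CPM, SD, n = 4). Hdac11, the only class IV deacetylase (chr6:91156665-91174692, plus strand), followed with 25.8 CPM per kb. Kat7, the HBO1 acetyltransferase, had 21.5, and the ranges of Hdac2, Hdac11 and Kat7 did not overlap. Hdac3 (19.4 CPM per kb) overlapped Kat7, and 45 of the 56 pairs of neighbours in the order of levels overlapped in the same way. Kat5, the Tip60 acetyltransferase, had 16.8, and Kdm1a, the flavin-dependent demethylase also named LSD1, led its class with 15.7. Sirt2 (12.1), Kmt5a (12.4), Dnmt1 (7.16) and Tet2 (1.47) were the highest of their classes. The lowest levels belonged to Kdm6b (0.827), Kdm4d (0.790), Hdac1 (0.659), Tet1 (0.655) and Dnmt3b (0.167 CPM per kb).

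Hdac1, the closest relative of Hdac2 and its partner in the same repressor complexes, shares a part of its transcript with another place in the genome. Hdac1 (chr4:129516104-129542713, minus strand) had 45 to 133 reads per whole DRG library. A near-identical processed copy, Gm10093 (chr17:78491582-78493025, plus strand), aligned to the Hdac1 transcript over 1444 bases with 9 differences (99.4% identity). Of the 1989 windows of 50 bases in the Hdac1 transcript, 1121 (56.4%) were also found in Gm10093, and a read from such a window has 2 places in the genome. A stretch of 60 bases with 5 differences is shown so that the copies can be compared, in exon 5 of Hdac1 (chr4:129522975-129523034, minus strand) and in Gm10093 (chr17:78492004-78492063, plus strand), each 5′ to 3′ with the 5 bases that differ in capitals.

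Hdac1: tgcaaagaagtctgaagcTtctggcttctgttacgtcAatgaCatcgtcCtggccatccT

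Gm10093: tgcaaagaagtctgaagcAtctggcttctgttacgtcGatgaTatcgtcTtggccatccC

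The longest run without a difference was 450 bases. The level of Hdac1 and its place in the order are therefore uncertain. Gm10093 itself had 0 to 5 reads per whole DRG library. In the sorted mice Hdac1 had 188 to 2760 reads per mouse and Gm10093 4 to 88. Over all wells of the naive sorted mice Hdac1 was the 26th in the order of levels. The part of the copy in the low whole DRG value was not tested. Of the 57 genes Hdac1 had the highest share of 50-base windows found in another gene (35.5%), followed by Kdm3b (24.1%), Hdac4 (21.6%) and Hdac11 (15.3%).

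At 1 day after SCI no enzyme gene of the 57 passed an adjusted p of 0.1 in whole DRG (edgeR quasi-likelihood test, Benjamini-Hochberg over 17616 genes), where 2.32% of all genes (408) did. The lowest adjusted p of a member was 0.241, and DESeq2, which called 929 genes, called no member either. At an unadjusted p under 0.05 there were 5 members (8.77%), 1 higher and 4 lower, against 14.6% of all genes (2570). Of the members 26 had a higher fitted value and 31 a lower one, with a median log2 fold change of −0.02, and over all genes these were 9362, 8254 and 0.01. The precision was high: the median SE of the members was 0.0888 on the log2 scale, and the 95% interval lay within a 1.25-fold change in either direction for 32 of 57, within 1.5-fold for 51 and within 2-fold for all 57. The 6 whose interval passed 1.5-fold were Dnmt3b, Hdac7, Kat6a, Kdm4d, Kdm6b and Kmt2a. In bulk tissue fewer cells of a type and less RNA per cell cannot be told apart. The plot of fold changes by class shows these intervals.

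**Figure D1:**
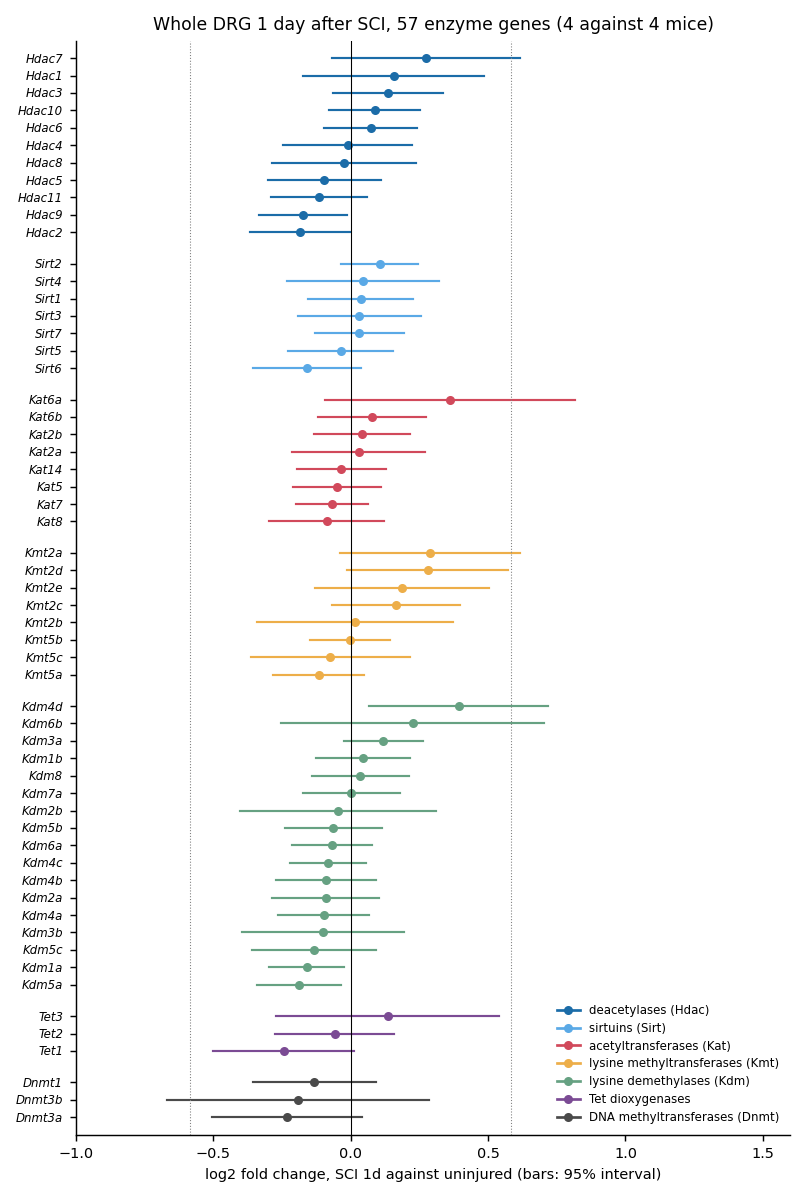
Log2 fold change of each of the 57 enzyme genes in whole DRG at 1 day after SCI against uninjured (x axis; 4 mice a group), grouped and coloured by class, with 95% intervals as bars and dotted lines at a 1.5-fold change. The points centre on a median of −0.02, Kdm4d lies furthest to the right at 0.39, and the intervals of Kdm5a, Kdm1a, Hdac9 and Hdac2 lie wholly below 0.

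Among the demethylases 6 of 17 had a higher and 11 a lower fitted value, with a median log2 fold change of −0.07. Kdm5a (chr6:120364124-120444574, plus strand), which removes methyl groups from the histone mark of active promoters, had 84.7, 75.9, 71.9 and 74.9 CPM in the uninjured mice and 71.5, 65.3, 66.7 and 66.3 CPM after SCI. All 4 injured values lay below all 4 uninjured ones, by a log2 fold change of −0.19 (SE 0.0687, 95% interval −0.34 to −0.03, p = 0.0207 and adjusted p = 0.241 by edgeR). Kdm1a (chr4:136550540-136602723, minus strand) had 87.4, 78.5, 78.2 and 81.5 CPM against 73.0, 72.1, 70.9 and 75.3 CPM. Here too the groups did not overlap (log2 fold change −0.16, SE 0.0610, interval −0.30 to −0.02, adjusted p = 0.261 by edgeR). Kdm4d (chr9:14462548-14500482, minus strand), a demethylase best known from testis, went the other way at a low level, with 2.48, 2.12, 2.43 and 2.02 CPM against 3.16, 2.43, 2.83 and 3.46 CPM. A single injured value, 2.43 CPM, lay within the uninjured range, and the log2 fold change was 0.39 (SE 0.147, interval 0.07 to 0.72, adjusted p = 0.250 by edgeR).

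Kdm3a, which acts on a mark of silent chromatin, had 19.5 to 20.1 CPM in uninjured mice and 21.4 to 21.9 CPM after SCI, a narrow gap with no overlap (log2 fold change 0.12, adjusted p = 0.434 by edgeR). Kdm4c had 28.0 to 29.8 CPM against 26.4 to 27.6 CPM (log2 fold change −0.08). Kdm3a was thus the 1 member with all injured values above all uninjured ones, against 4.92% of all genes, and Kdm1a, Kdm4c and Kdm5a the 3 members with all of them below, against 6.07% of all genes. As shares of 57 both counts were below those of all genes.

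The deacetylases split into 5 higher and 6 lower, with a median of −0.01. Hdac2 had 140.0, 161, 163 and 159 CPM in the uninjured mice and 143, 147, 119 and 140.0 CPM after SCI. The uninjured mouse 1 lay among the injured mice, and the log2 fold change was −0.18 (SE 0.0816, p = 0.0473, adjusted p = 0.335 by edgeR). Hdac9, a class IIa deacetylase of muscle and nerve, had 44.5, 39.9, 41.4 and 41.0 CPM against 36.7, 34.6, 40.7 and 35.8 CPM, with only SCI mouse 3 inside the uninjured range (log2 fold change −0.17, SE 0.0724, adjusted p = 0.301 by edgeR). Hdac7 had 6.80 to 8.52 CPM against 7.02 to 12.0 CPM, with an interval of −0.07 to 0.62.

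The 7 sirtuins stayed close together, with 5 higher and 2 lower and a median of 0.03. Sirt2, a mainly cytoplasmic enzyme that deacetylates tubulin and is abundant in myelinating cells, had 60.5, 61.4, 62.6 and 58.7 CPM against 64.0, 69.9, 66.5 and 61.0 CPM (log2 fold change 0.11, adjusted p = 0.485 by edgeR). Only SCI mouse 4 overlapped the uninjured range. Sirt6, a nuclear sirtuin of DNA repair and glucose metabolism, had 11.6 to 12.9 CPM against 9.99 to 11.9 CPM (log2 fold change −0.16, adjusted p = 0.450). Sirt7, which acts in the nucleolus, had a log2 fold change of 0.03.

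The DNA methyltransferases were lower in all 3 cases (median −0.19) without any passing the test. Dnmt3a, the main de novo enzyme of neurons, had 52.5, 41.4, 39.9 and 38.9 CPM against 33.0, 35.3, 44.8 and 33.5 CPM. Again SCI mouse 3 was the single injured value inside the uninjured range (log2 fold change −0.23, SE 0.124, interval −0.50 to 0.04, adjusted p = 0.430 by edgeR). Dnmt1, the maintenance enzyme (chr9:20907209-20959888, minus strand), had a log2 fold change of −0.13, and Dnmt3b, at 0.63 to 1.08 CPM over the 8 mice, one of −0.19 with a wide interval of −0.67 to 0.29. Tet1 had 11.04, 10.2, 9.70 and 9.60 CPM against 7.06, 8.13, 9.93 and 8.99 CPM (log2 fold change −0.24, SE 0.116, interval −0.50 to 0.01, adjusted p = 0.370 by edgeR). Tet2 (−0.06) and Tet3 (0.14, interval −0.27 to 0.54) lay near 0.

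Of the 8 methyltransferases 5 had a higher and 3 a lower fitted value, with a median of 0.09 and none called. Kmt2d, which writes enhancer methylation, had 62.2, 64.7, 68.2 and 64.5 CPM in the uninjured mice and 75.3, 75.0, 103 and 61.3 CPM after SCI (log2 fold change 0.28, interval −0.01 to 0.57, adjusted p = 0.362 by edgeR). Kmt2a had 39.0, 36.6, 41.5 and 37.0 CPM against 43.3, 43.3, 64.3 and 37.0 CPM (log2 fold change 0.29, interval −0.04 to 0.62). Kat6a (chr8:22859535-22943259, plus strand), the MOZ acetyltransferase, had 21.8, 19.9, 21.5 and 21.98 CPM against 22.5, 23.0, 42.8 and 20.6 CPM (log2 fold change 0.36, interval −0.09 to 0.82). In all 3 genes SCI mouse 3 was the highest, and SCI mouse 4 lay below the uninjured range in Kmt2d and within it in the others. Without SCI mouse 3 the log2 fold change was 0.13 for Kmt2d and 0.11 for Kmt2a. Leaving out single mice gave 0.06 to 0.47 for Kat6a. The other acetyltransferases lay near 0, with Kat7 at −0.07 and Kat8, the MOF enzyme, at −0.09, and the class median was −0.00 (4 higher, 4 lower).

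**Figure D2:**
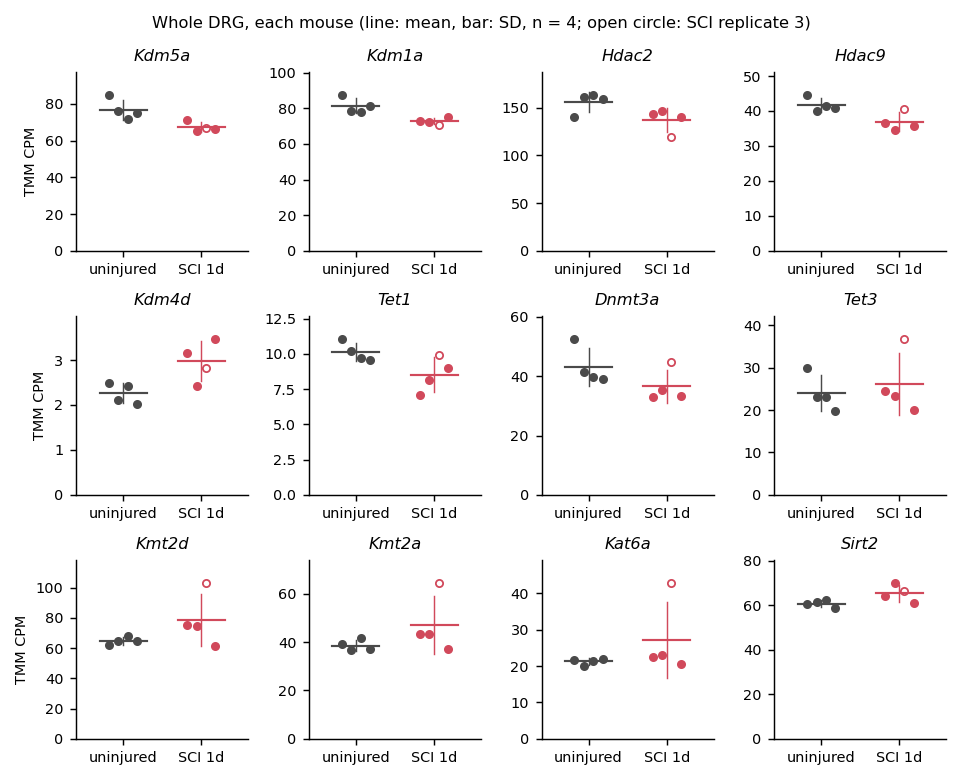
TMM CPM of 12 enzyme genes in each whole DRG mouse (y axes from 0), uninjured and at 1 day after SCI, with the mean as a line, the SD as a bar (n = 4) and SCI mouse 3 as an open circle. The groups separate in Kdm5a and Kdm1a, and SCI mouse 3 stands above the other 3 injured mice in Kmt2d (103 CPM), Kmt2a (64.3 CPM), Kat6a (42.8 CPM), Tet3 (36.7 CPM) and Dnmt3a (44.8 CPM).

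SCI mouse 3 held the highest of the 8 values for 19 of the 57 members (33.3%, against 20.2% of all genes), and uninjured mouse 1 for 23 (40.4%, against 23.5%). SCI mouse 4 held the lowest for 17 of the 57 members, against 14.975% of all genes. Without SCI mouse 3 there were 2 members with all injured values above the uninjured ones (Hdac3 and Kdm3a, against 9.24% of all genes) and 14 with all below (Dnmt3a, Hdac9, Kat2a, Kdm1a, Kdm2a, Kdm3b, Kdm4a, Kdm4c, Kdm5a, Kdm5b, Kdm5c, Kdm7a, Kmt5a and Tet1, against 10.7% of all genes). The fit without it still called no member (8, or 14.0%, at an unadjusted p under 0.05, against 16.5% of all genes). The calls over all genes went from 408 to 640 and the median of the members from −0.02 to −0.06. Without SCI mouse 4 the counts were 7 above (Hdac7, Kat6a, Kat6b, Kdm3a, Kmt2a, Kmt2d and Sirt2, against 7.77% of all genes) and 4 below (against 8.40%). Haemoglobin genes moved with the injury: of a 5-gene red blood cell list 4 passed the test as higher, with a summed level of 13.4 to 21.3 CPM in uninjured mice and 20.7 to 88.6 CPM after SCI, of which SCI mouse 4 had the lowest. With this level as a covariate 23 genes were called in all and no member (4, or 7.02%, at an unadjusted p under 0.05, against 9.14% of all genes). In that fit the values of Kmt2a, Kmt2c, Kmt2d, Hdac7, Sirt2, Sirt7 and Tet3 changed sign. The covariate, a mean log2 CPM, was 0.994 to 1.72 in uninjured mice. It was 2.95, 3.53 and 3.27 in SCI mice 1 to 3 and 1.43 in SCI mouse 4. It thus largely went with the injury, and the fit cannot tell them apart. All 6 genes of a macrophage list were higher in the fit without a covariate, none of them called. Of the glia list Glul was called as higher, and of the fibroblast list Lum as lower. The part of these cells in the members' values was not tested.

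Over all wells of the naive sorted mice Sirt2 stood first, at 54.5 CPM per kb (274.7 ± 79.5 CPM, SD, n = 6), where it was the 11th in whole DRG. Hdac3 (17.7 CPM per kb), Sirt3, a mitochondrial sirtuin (14.9), Kat5 (13.2), Kmt2d (12.4) and Kmt5a (12.2) followed. Hdac2 was the 10th with 7.86 CPM per kb. Kdm4a, a JmjC demethylase, went from rank 8 in whole DRG to rank 50 (0.500 CPM per kb), and Kdm6b, which removes the Polycomb mark, from rank 53 to 15 (5.99 CPM per kb). In neuronal wells alone Sirt2 was again first (43.0 CPM per kb), followed by Hdac3 (21.7), Sirt3 (18.1) and Kat5 (17.6). Hdac2 was there the 7th with 12.7 CPM per kb and Kdm6b the 23rd with 3.18. Sorted cells and whole DRG were made into libraries with different kits, so these orders are given side by side without a test. The members together took 0.240 to 0.254% of the reads in uninjured DRG, 0.230 to 0.263% after SCI and 0.138 to 0.218% in the sorted mice.

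A well of 100 cells caught most of the set. Neuronal wells held reads of 49 to 57 of the 57 genes (median 55) and glia-rich wells of 37 to 53 (median 44). Reads of 40 genes were present in each of the 46 neuronal wells, and of 13 in each of the 20 glia-rich ones. The Polycomb-associated demethylase Kdm2b was found in 36 of 46 neuronal and 2 of 20 glia-rich wells, and Kmt5c, a writer of heterochromatin methylation, in 31 and 2. Kdm4d was found in 40 and 5, and Tet1 in 36 and 10. Dnmt3b was rare in both, with reads in 10 of 46 and 5 of 20 wells. By their medians over wells 3 genes were at least 2 times higher in glia-rich wells: Sirt2 (545 against 201 CPM), Kdm6b (69.1 against 19.8 CPM) and Kat2b, the PCAF acetyltransferase (27.1 against 11.9 CPM). Tet3 had 0.218 CPM in glia-rich and 16.7 CPM in neuronal wells, and Hdac11 0.0684 and 20.6 CPM. The median depth was 18180502 reads in neuronal and 14693232 in glia-rich wells. Kdm5d, a Y-linked demethylase outside the set, reached 667 reads in a sorted mouse and was at 0 in whole DRG.

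**Figure D3:**
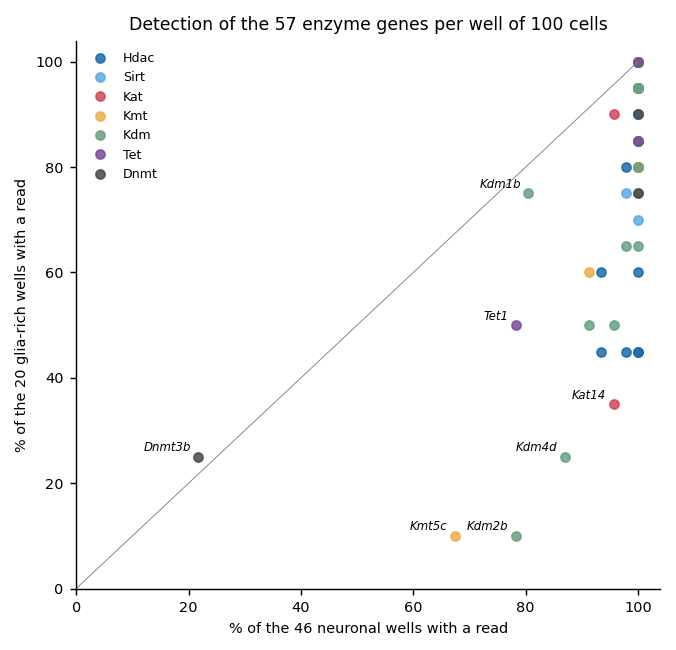
Share of the 46 neuronal wells (x axis, %) and of the 20 glia-rich wells (y axis, %) with at least 1 read of each of the 57 enzyme genes, coloured by class, with the line of equal shares and points overlapping at the upper right. Nearly all genes lie on the line or to the right of it, Kdm2b, Kdm4d and Kat14 are the furthest from it, and Dnmt3b lies at 21.7% of neuronal wells.

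The spread among sorted mice was far larger than in whole DRG, with a biological coefficient of variation of 1.19 against 0.133 and a median SE of the members between 0.752 and 0.868 over the 6 comparisons. Only 3 to 7 members had an interval within a 2-fold change in a comparison, and 21 to 28 within 4-fold. With the 3 wells summed, no member passed an adjusted p of 0.1 in any of the 6. The share of all genes that did was 0.519% at SNI 1d against naive (122 of 23507 genes), 0.442% at SNI 3d (104), 0.0468% at SCI 1d (11), 0.051% at SCI 3d (12) and 0.0% in both direct comparisons of SNI with SCI. At an unadjusted p under 0.05 there were 6 members at SNI 1d (all genes 14.0%), 7 at SNI 3d (13.2%), 2 at SCI 1d (11.2%), 6 at SCI 3d (9.56%), 1 in SNI 1d against SCI 1d (10.1%) and 3 in SNI 3d against SCI 3d (8.15%). As shares of 57 these counts were at or below the shares of all genes, apart from SCI 3d at 10.5%. The medians of the members (and of all genes) were 0.07 (0.15), −0.04 (−0.01), 0.11 (0.15) and 0.06 (0.01) against naive, in the same order.

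**Figure D4:**
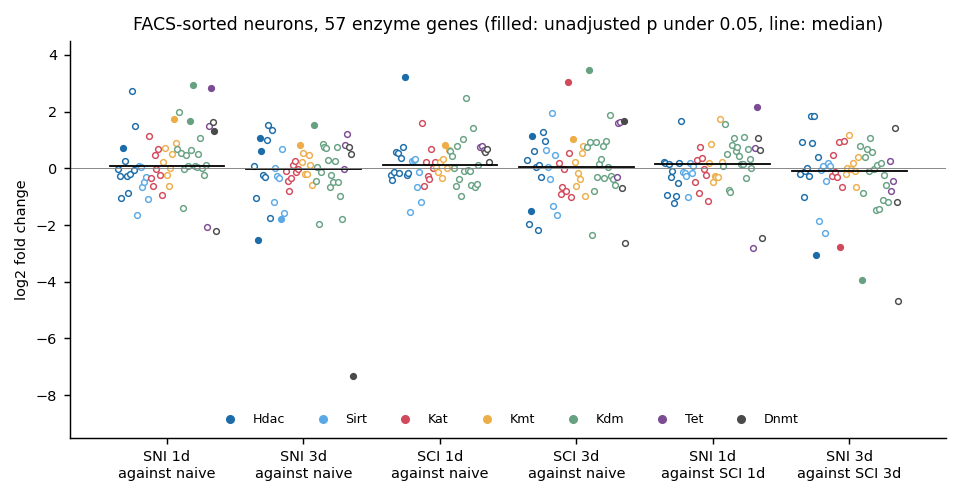
Log2 fold change of the 57 enzyme genes in sorted cells, over all wells, for the 6 comparisons (y axis; columns), coloured by class, with filled points at an unadjusted p under 0.05 and a line at the median. Medians lie between −0.08 and 0.14, and the point near −7 is Dnmt3b at SNI 3d, where all 4 mice had 0 reads, so that its position depends on the prior count.

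The lowest adjusted p of a member after SNI at 1 day belonged to Tet3 (chr6:83362373-83459084, minus strand), a Tet enzyme that neurons express. Its levels were 2.10, 3.70, 9.56, 15.2, 26.6 and 0.338 CPM in naive mice (median 6.63) and 47.7, 35.5, 63.5 and 29.8 CPM at SNI 1d. All 4 injured mice lay above all 6 naive mice, the only member with this pattern, which 1.3% of all genes showed. The log2 fold change was 2.82 (SE 0.802, interval 1.15 to 4.50, p = 0.0022, adjusted p = 0.154 by edgeR). At SNI 3d Tet3 had 36.9, 24.5, 0.130 and 37.5 CPM, the 0.130 CPM in the mouse with glia-rich wells only (log2 fold change 1.19, interval −0.50 to 2.89).

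After SCI Tet3 stayed within the naive range, with 6.05, 15.2, 6.21 and 12.997 CPM at 1 day and 18.4, 9.25, 15.4 and 5.14 CPM at 3 days. The intervals were −0.97 to 2.29 and −0.28 to 3.55, and the value of 2.82 at SNI 1d lies outside the first and inside the second. Set directly against each other, SNI 1d and SCI 1d differed by 2.16 on the log2 scale with no overlap between the 8 mice (SE 0.902, interval 0.28 to 4.05, unadjusted p = 0.0266, adjusted p = 0.467 by edgeR).

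Over 27 other settings the Tet3 difference at SNI 1d was always higher, from 1.51 to 3.26 on the log2 scale, with adjusted p from 0.0074 (DESeq2) to 1.0 (edgeR), and whether it passed the threshold turned on the setting. In neuronal wells alone the levels were 1.59, 4.36, 10.3, 16.1, 53.2 and 0.779 CPM in naive mice, where mice 5 and 6 have a single such well each, and 57.5, 45.95, 47.3 and 33.9 CPM at SNI 1d. Naive mouse 5 then lay among the injured mice. In that fit Tet3 was called at SNI 1d (log2 fold change 2.58, adjusted p = 0.0177 by edgeR) and at SNI 3d (44.9, 26.4 and 37.6 CPM in 3 mice, 2.23, adjusted p = 0.0511 by edgeR), and SNI 1d against SCI 1d came to 2.26 (adjusted p = 0.115). It was also called with naive mice of day 1 only (2.98, adjusted p = 0.0670 by edgeR, where 1.11% of all genes were called as higher and Tet3 was the only member). Within the FACS set alone it was 2.53 (adjusted p = 0.317) and within the FACS2018 set alone 1.51 (adjusted p = 0.890 by edgeR), neither called. These fits had 2 SNI 1d mice each and no RUVr factors. They called 0.0046% and 0.0% of all genes at SNI 1d, so the lack of a call there decides nothing. With Y-linked reads as a covariate the Tet3 difference was 2.81 (adjusted p = 0.227 by edgeR).

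Tet2 (chr3:133463679-133545139, minus strand) had 16.1, 17.3, 32.2, 23.8, 4.43 and 1.79 CPM in naive mice and 28.9, 34.0, 71.5 and 23.7 CPM at SNI 1d (log2 fold change 1.48, interval −0.05 to 3.02, adjusted p = 0.374 by edgeR). The 2 lowest values were naive mice 5 and 6. In neuronal wells it was called at SNI 1d (2.17, adjusted p = 0.0285) and at SNI 3d (1.91, adjusted p = 0.0685 by edgeR), but without naive mice 5 and 6 the values were 0.69 (adjusted p = 0.390) and 0.65 (adjusted p = 0.486). Tet1 was low and scattered in all sorted groups, from 0.0260 to 6.04 CPM in naive mice.

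Dnmt1 had 12.1, 3.66, 6.47, 3.19, 0.151 and 22.5 CPM in naive mice, 29.5, 14.5, 16.5 and 27.3 CPM at SNI 1d and 20.5, 19.9, 0.130 and 20.7 CPM at SNI 3d. Naive mouse 6 and the injured mouse with glia-rich wells only were the exceptions to a higher level after SNI, and the test over all wells gave 1.63 at SNI 1d (interval −0.88 to 4.13, adjusted p = 0.592 by edgeR). In neuronal wells the naive mice had 14.0, 4.33, 6.94, 3.39, 0.101 and 0.260 CPM, the SNI 1d mice 38.5, 18.7, 23.9 and 31.1 CPM and the SNI 3d mice 24.6, 21.4 and 20.7 CPM, without overlap. The share of all genes without overlap in neuronal wells is not given here. Dnmt1 was then called at both times (3.16, adjusted p = 0.0238, and 2.69, adjusted p = 0.0604, by edgeR). Without naive mice 5 and 6 as well, it was 1.92 at SNI 1d (adjusted p = 0.0680) and 1.59 at SNI 3d (adjusted p = 0.189 by edgeR). After SCI the neuronal wells had 3.26 to 19.5 CPM at 1 day and 6.32 to 11.6 CPM at 3 days, and SNI 1d exceeded SCI 1d by 1.21 on the log2 scale (adjusted p = 0.471).

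Without glia-rich wells 7 members were called as higher at SNI 1d, where 5.6% of all genes were called as higher, and 4 at SNI 3d, where 4.16% were. Beside Tet3, Tet2 and Dnmt1 these were Kdm5c, a demethylase of active promoters on the X chromosome (1.06), Kmt5b (1.84), Kdm4b (1.79) and Kmt5a (0.65) at SNI 1d, and Hdac6, the tubulin deacetylase (1.34), at SNI 3d. None was called after SCI, where 10 members (17.5%) had an unadjusted p under 0.05 at 1 day, against 16.0% of all genes, and 11 (19.3%) at 3 days, against 12.3%. Without naive mice 5 and 6 as well, 2 members were called at SNI 1d (Tet3, 2.56, adjusted p = 0.0392, and Dnmt1 by edgeR), where 1.65% of all genes were called as higher. At SNI 3d 0 were, where 0.945% of all genes were called as higher (5 members, 8.77%, at an unadjusted p under 0.05, against 14.5% of all genes). The part of the glia-rich wells in the values over all wells was not tested further.

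**Figure D5:**
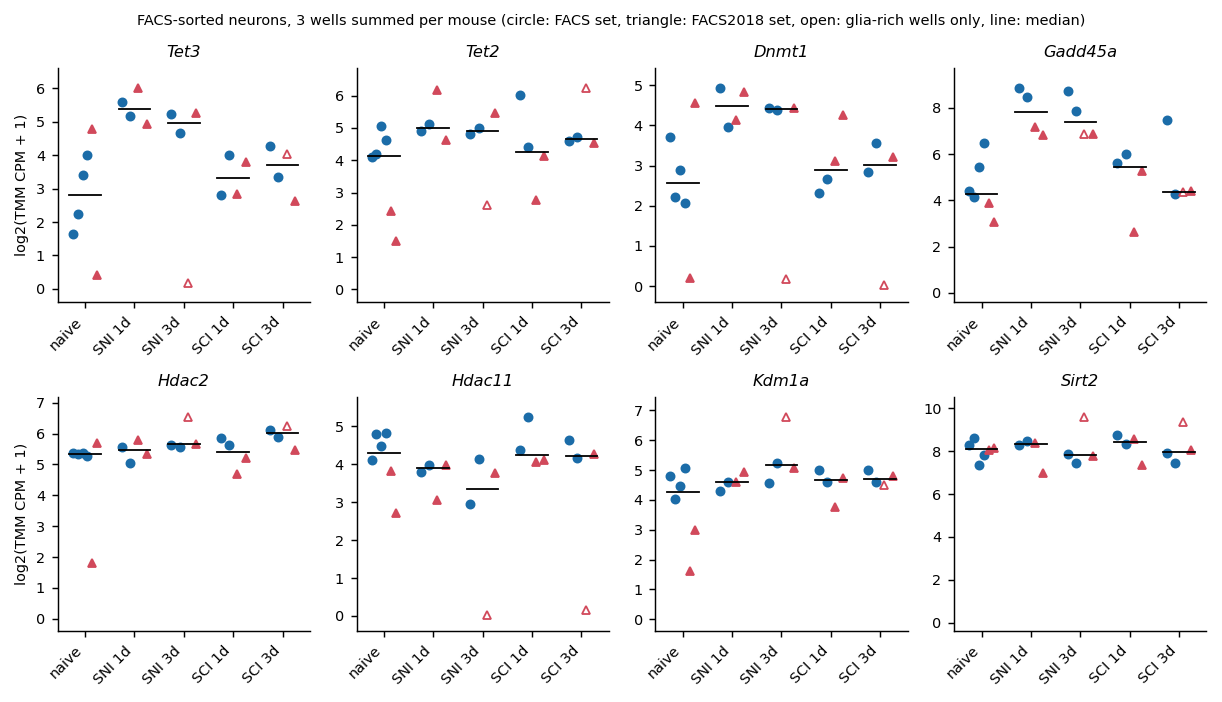
Levels in each sorted mouse, as log2 of TMM CPM plus 1 (y axes), of 7 enzyme genes and Gadd45a in the 5 groups, with circles for the FACS set, triangles for the FACS2018 set, open symbols for the mice with glia-rich wells only and a line at the median. In Tet3 the 4 SNI 1d mice lie above the 6 naive mice, both open symbols lie below the rest of their groups in Dnmt1 and Hdac11 and above it in Sirt2, and the one at SNI 3d also lies below in Tet3 and above in Kdm1a.

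Dnmt3a had 1.74 to 22.4 CPM in naive mice (median 9.92), 33.8, 12.7, 44.0 and 15.4 CPM at SNI 1d and 20.5, 17.2, 119.6 and 26.1 CPM at SCI 3d, the 119.6 CPM in the mouse with glia-rich wells only. The log2 fold changes were 1.33 (SE 0.537, adjusted p = 0.280) and 1.68 (adjusted p = 0.490 by edgeR), and in neuronal wells the first turned to −0.15. Dnmt3b had no read in any mouse at SNI 3d and 0 to 3.51 CPM in naive mice, so no fold change is given.

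Hdac2 had 40.1, 39.1, 40.5, 37.4, 2.52 and 51.4 CPM in naive mice, 46.4, 32.3, 54.1 and 39.7 CPM at SNI 1d and 48.5, 46.7, 91.7 and 49.9 CPM at SNI 3d. Apart from naive mouse 5 the values lay close together, and the groups at SNI 1d and naive overlapped. The log2 fold change was 0.72 at SNI 1d (adjusted p = 0.306) and 1.05 at SNI 3d (SE 0.307, interval 0.41 to 1.70, adjusted p = 0.170 by edgeR). At SCI 3d, with 68.7, 58.2, 75.3 and 42.8 CPM, it was 1.16 (SE 0.309, interval 0.51 to 1.80, adjusted p = 0.441 by edgeR). Between SNI 3d and SCI 3d the difference was −0.10 (interval −0.82 to 0.61). Without naive mouse 5 the values fell to 0.33 at SNI 3d and 0.46 at SCI 3d, and without SNI 3d mouse 3 the first was 0.64. In neuronal wells naive mice had 4.08 to 169 CPM, SNI 3d mice 49.7 to 50.3 CPM and SCI 3d mice 56.5 to 70.9 CPM, with log2 fold changes of 0.32 (adjusted p = 0.570) and 0.65 (adjusted p = 0.361 by edgeR).

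Hdac11 was the member with the lowest p at SNI 3d. It had 16.2, 26.9, 21.4, 27.4, 13.1 and 5.54 CPM in naive mice, 12.9, 14.8, 7.32 and 14.8 CPM at SNI 1d and 6.68, 16.6, 0.0259 and 12.6 CPM at SNI 3d. All 8 injured mice lay at or below 16.6 CPM, as did naive mice 1, 5 and 6, so the groups overlapped. The log2 fold change was −1.06 at SNI 1d (interval −2.43 to 0.32) and −2.54 at SNI 3d (SE 0.726, interval −4.06 to −1.03, adjusted p = 0.160 by edgeR). In neuronal wells the naive mice had 18.4 to 31.9 CPM and the SNI 3d mice 7.50, 17.8 and 12.7 CPM, without overlap. How many of all genes part in this way in neuronal wells is not given here. The fit in neuronal wells gave a log2 fold change of −0.999 (adjusted p = 0.114 by edgeR), which was no call. Leaving out single mice gave −3.14 to −0.93, the last without SNI 3d mouse 3, whose wells are all glia-rich (adjusted p = 0.499). A call at SNI 3d was made without naive mouse 5 (−2.49, adjusted p = 0.0443) or without naive mouse 6 (−2.76, adjusted p = 0.0204 by edgeR), where 2.51% and 3.03% of all genes were called. At SCI 1d Hdac11 had 19.7, 37.0, 15.6 and 16.1 CPM over all wells, all above the SNI 1d mice. In neuronal wells it had 25.5, 29.0, 21.9 and 17.2 CPM at SCI 1d. The SNI 1d mice had 16.8, 18.9, 10.6 and 16.9 CPM there, so the groups overlapped.

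Kdm1a had 26.7, 15.3, 21.3, 32.4, 2.04 and 6.89 CPM in naive mice and 22.7, 36.7, 109 and 32.8 CPM at SNI 3d, where the 109 CPM belonged to the mouse with glia-rich wells only (log2 fold change 1.53, SE 0.486, adjusted p = 0.204 by edgeR). In neuronal wells the SNI 3d mice had 26.9, 39.5 and 32.9 CPM and the naive mice 3.88 to 34.4 CPM (0.60, adjusted p = 0.267 by edgeR), and without SNI 3d mouse 3 the log2 fold change was 0.89. As a class the demethylases had 14 of 17 members with a higher fitted value at SNI 1d (median 0.46, all genes 0.15), against 8 of 17 at SCI 1d (median −0.06, all genes 0.15). Both counts are over all wells and against the same naive mice. Genes are not replicates of an injury, and no difference between the classes or injuries was tested on these counts. Kdm4b had 0.442 to 26.1 CPM in naive mice and 23.7, 7.99, 20.1 and 14.5 CPM at SNI 1d (1.67, adjusted p = 0.234 by edgeR). Kdm4d had 1.37, 1.07, 14.0 and 0.0575 CPM at SNI 1d and 10.1, 3.80, 5.91 and 4.36 CPM at SCI 1d, with adjusted p of 0.343 and 0.475 (edgeR). In neuronal wells it had 0.0654 to 1.77 CPM at SNI 1d, 4.65 to 13.1 CPM at SCI 1d and 0.0504 to 4.62 CPM in naive mice.

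Hdac7 at SCI 1d had 0.359, 0.737, 36.3 and 2.77 CPM, and its log2 fold change of 3.22 (adjusted p = 0.403 by edgeR) became −0.11 without mouse 3, and in neuronal wells the SCI 1d mice had 0.119 to 2.95 CPM. Kat6b at SCI 3d had 14.0, 7.61, 33.0 and 65.5 CPM against 0.884 to 12.3 CPM in naive mice (3.03, adjusted p = 0.467 by edgeR), with 2.27 to 3.50 when single mice were left out. In neuronal wells it had 14.4, 8.14 and 9.91 CPM against 2.42 to 7.97 CPM, all above the naive mice, with a log2 fold change of 1.24 (adjusted p = 0.443 by edgeR). The share of all genes with this pattern in neuronal wells is not given here. Kmt2a at SCI 3d had 54.4, 43.1, 150.3 and 104 CPM against 25.2 to 63.2 CPM (1.03, adjusted p = 0.474 by edgeR), but 43.4 to 56.2 CPM against 26.7 to 58.5 CPM in neuronal wells (0.27). Kmt5a, which places the single methyl group on histone H4, had 73.6, 103, 117 and 49.0 CPM at SCI 1d against 9.29 to 155 CPM (0.83, adjusted p = 0.403 by edgeR), and 44.0 to 65.9 CPM against 17.8 to 82.5 CPM in neuronal wells (0.10). Without naive mouse 5 it was 0.32. Of the sirtuins Sirt2 had 164 to 399 CPM in naive mice and 232, 172, 765 and 218 CPM at SNI 3d, the 765 CPM again in the mouse with glia-rich wells only.

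A second test, DESeq2 without the quasi-likelihood spread, called more genes. It called 3 members at SNI 1d (Tet3, 2.79, adjusted p = 0.0074, with Hdac2 and Kdm4b), where 6.16% of all genes were called, and 4 at SNI 3d (Hdac2, Hdac11, Kdm1a and Sirt5), where 9.14% were. It called 0 at SCI 1d, where 4.61% of all genes were called. At an unadjusted p under 0.05 there were 6 members (10.5%) there, against 11.8% of all genes. At SCI 3d it called 4 (Hdac2, Dnmt3a, Kat6b and Kmt2a), where 4.73% of all genes were called. In SNI 3d against SCI 3d it called 2 (Kat6b and Hdac8, both lower), where 3.63% were. In SNI 1d against SCI 1d it called 0 of the members, where 4.67% of all genes were called (3 members, 5.26%, at an unadjusted p under 0.05, against 11.3%). There, over all wells, 3 members (Kdm2a, Kdm4c and Tet3) had all SNI values above all SCI values, against 2.6% of all genes. Hdac11 had all of them below, against 1.76%, but overlapped in neuronal wells. Kdm4c, whose SNI 1d mice had 11.5, 18.1, 14.4 and 14.2 CPM and SCI 1d mice 9.38, 10.2, 6.46 and 8.74 CPM, overlapped the naive mice at 7.21 to 17.5 CPM.

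The partners of these enzymes were looked at through 73 other chromatin genes in 6 lists (methylation writers outside the Kmt symbols, acetyltransferases outside the Kat symbols, JmjC proteins outside the Kdm symbols, subunits of deacetylase complexes, readers of DNA methylation with partners of demethylation, and acetyl-lysine readers). In whole DRG 1 of 73 was called, against 2.32% of all genes. Rcor3, a CoREST subunit that binds Kdm1a and Hdac1 or Hdac2, rose from 30.9 ± 1.19 CPM (29.7 to 32.1) to 39.7 ± 2.87 CPM (36.8 to 42.4; SD, n = 4), a log2 fold change of 0.37 (SE 0.0721, adjusted p = 0.0438 by edgeR). Its direction held in 15 other settings (0.29 to 0.40), of which 6 lost the call.

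Over all wells of the sorted mice, the glia-rich ones among them, 1 of 72 was called at SNI 1d and again at SNI 3d. Of all genes 0.519% and 0.442% were called. The 1 of the 72 was Gadd45a at both times. It is a stress gene that takes part in active DNA demethylation, and its levels in neuronal wells alone are not given here. Naive mice had 7.28 to 86.8 CPM (median 18.4), SNI 1d mice 113 to 455 CPM and SNI 3d mice 115 to 425 CPM, without overlap. Of all genes 1.3% lay wholly above the naive mice at SNI 1d and 0.961% at SNI 3d. Gadd45a rose by 3.10 (SE 0.702, adjusted p = 0.0799) and 3.01 (SE 0.704, adjusted p = 0.0962) on the log2 scale by edgeR. The direction held in 27 other settings for each time, of which 19 lost the call. Within the FACS set alone the values were 3.37 (adjusted p = 0.245) and 3.03 (adjusted p = 0.297), and within the FACS2018 set alone 3.31 (adjusted p = 0.727) and 3.11 (adjusted p = 0.736 by edgeR). These fits had no RUVr factors. They called 0.0046% and 0.0414% of all genes in the FACS set and 0.0% at both times in the FACS2018 set. After SCI Gadd45a had 5.14 to 63.6 CPM at 1 day and 18.5 to 174 CPM at 3 days. None of the 72 genes was called by edgeR at either time (2 and 5 at an unadjusted p under 0.05, against 11.2% and 9.56% of all genes). In the direct comparisons with SCI none was called by edgeR either, with 4 and 3 of 72 at an unadjusted p under 0.05 (all genes 10.1% and 8.15%). DESeq2 called Gadd45a in SNI 1d against SCI 1d (2.79, adjusted p = 0.0108), where it called 4.67% of all genes.

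Promoters of RefSeq (250 bases before to 50 after the start) were matched for 46 of the 57 genes, 69 promoters in all among 32851, and searched on both strands. The GC box GGGCGG was in 66.7% of them and in 35.7% of all promoters. The CCAAT box CCAAT was in 40.6% against 37.4%, the E-box CACGTG in 8.70% against 7.15%, and the AP-1 motif TGANTCA in 11.6% against 7.81% (in Hdac7, Hdac9, Kat2b, Kat8, Kdm3a, Kdm4a and Kdm5c). The cyclic AMP response element TGACGTCA was in none of the 69 and in 1.79% of all promoters. These are matches of letters in a short window and say nothing of binding.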

How the data were processed

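RNA-seq was deposited as 1 count table per library. Per the labels and the study's methods the authors trimmed reads with cutadapt, aligned them to mouse build mm10 (GRCm38) with STAR 2.5.3a and counted reads per gene with HTSeq 0.6.1, without normalization; strand setting and annotation are not given in the sources used here, so overlapping and antisense genes cannot be told apart. The 5 summary lines per file were left out (no feature: 10.3 to 12.8% of reads in whole DRG, 3.56 to 24.0% in sorted wells). The series tables with the authors' normalized values, log2 fold changes and p-values, with 123 per-sample columns, were not used.

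Gene names came from GENCODE vM21 (53274 genes). Wells were summed per mouse. Counts were fitted with the edgeR 4.0.16 quasi-likelihood test (R 4.3.3, limma 3.58.1) with TMM scaling and Benjamini-Hochberg adjustment over all genes tested, threshold 0.1. The whole DRG fit took genes averaging 10 counts or more. The FACS fit took genes that reached 20 reads in 1 mouse, all 22 mice shared 1 fit, and 2 RUVr factors (from centred deviance residuals) were covariates. SE is the log2 fold change over the root of F; intervals are 95%. CPM are TMM-scaled and not adjusted for RUVr factors, so a fitted fold change can differ from a ratio of the levels printed. Wells were called glia-rich above a glia-list share of 2.06%, the widest gap between wells. Scripts were tested on simulated data. DESeq2 1.42.0, Python 3.11.15, pandas 2.3.3 and scipy 1.17.1 were also used.

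Members, lists and tests were chosen with earlier results of these data known. Named genes are, in whole DRG, the 3 members of each class with the smallest p and the member with the highest CPM per kb, and, in FACS, the 3 with the smallest p in each comparison with naive mice; other chromatin genes are those past the threshold. Others named were chosen after their values were seen. Same-numbered mice were not treated as pairs: their deviations correlated at −0.23 to 0.34 in whole DRG and −0.044 to 0.39 in FACS, and no label ties the numbers. The medians were −0.0088 against 0.028 for other pairs in whole DRG, and 0.118 against −0.0467 in FACS. Within the FACS set the replicate number went with Y-linked reads. Naive mice 1 and 3 and mouse 1 of each injured group, all of number 1, held 5237 to 14355. Those of number 2 held 0 to 22. P-values measure the spread between these mice.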

Additional observations from a re-analysis of the deposited data

Results flagged for a closer look

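In groups of 4 to 6 mice the highest or lowest value was set against the nearest other by Dixon's test. For normally distributed values chance alone passes it in about 1 of 20 groups. The CPM of sorted mice varied widely and the groups share mice, so that rate need not hold here. Of 116 groups 14 passed, and 7 of the 14 were in mouse 3 of SNI 3d or mouse 3 of SCI 3d, the mice with glia-rich wells only. In whole DRG these were Hdac2 in uninjured mouse 1 (140.0 CPM, the others 159 to 163) and Kat6a in SCI mouse 3 (42.8 CPM, the others 20.6 to 23.0).

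In SNI 3d mouse 3 they were Dnmt1 (0.130 CPM, the others 19.9 to 20.7), Hdac2 (91.7 CPM, the others 46.7 to 49.9), Kdm1a (109 CPM, the others 22.7 to 36.7), Kmt2a (168 CPM, the others 47.7 to 60.8) and Sirt2 (765 CPM, the others 172 to 232). In SCI 3d mouse 3 they were Tet2 (74.3 CPM, the others 22.1 to 25.4) and Dnmt3a (119.6 CPM, the others 17.2 to 26.1).

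The remaining values were Hdac2 in naive mouse 5 (2.52 CPM, the others 37.4 to 51.4), Hdac7 in naive mouse 2 (6.66 CPM, the others 0.0260 to 2.38), Hdac7 in SCI 1d mouse 3 (36.3 CPM, the others 0.359 to 2.77), Kmt5a in SNI 1d mouse 3 (82.6 CPM, the others 60.7 to 62.8) and Gadd45a in SCI 3d mouse 1 (174 CPM, the others 18.5 to 20.1). Their cause was not tested.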

How the results depend on the processing

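Of the values recomputed under the alternatives 718 kept their direction and side of the threshold, 19 passed it newly, 44 no longer passed it and 18 changed sign. The count of members called was 0 under most settings, and moved as follows. At SNI 1d it was 3 with DESeq2, 7 without glia-rich wells, 2 without these and naive mice 5 and 6, and 1 with naive mice of day 1 only. At SNI 3d it was 4 with DESeq2, 4 without glia-rich wells, and 0 to 3 when single mice were left out (1 without naive mouse 5, where 2.51% of all genes were called, and 3 without naive mouse 6, where 3.03% were). At SCI 3d it was 4 and in SNI 3d against SCI 3d 2 with DESeq2. Whole DRG members without overlap numbered 4 to 16 when single mice were left out (7 without uninjured mouse 2, 16 without SCI mouse 3, 11 without SCI mouse 4), and the share of all genes without overlap rose too, to 6.30% higher and 7.59% lower, 9.24% and 10.7%, and 7.77% and 8.40%.

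In whole DRG the red blood cell level largely went with the injury. As a covariate it gave Hdac7 −0.0516, Kmt2a −0.0280, Kmt2c −0.0317, Kmt2d −0.0272, Sirt2 −0.00764, Sirt7 −0.0484 and Tet3 −0.29. Leaving out a mouse gave Sirt7 −0.000580 to 0.0805, Tet2 −0.0932 to 0.00956, Tet3 −0.0684 to 0.26 and, at SCI 1d in FACS, Hdac7 −0.11 to 4.31. Dnmt3a at SNI 1d was −0.15 without glia-rich wells and −0.27 without naive mice 5 and 6 as well, and Tet2 −0.0469 with RUVr factors that were not centred. Hdac7 at SCI 1d was −2.29 in the FACS set only and −1.56 without glia-rich wells and naive mice 5 and 6, and Kmt5a −0.19 in the FACS2018 set only. The causes were not tested.

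With the replicate number as a block the members called stayed at 0 in all 7 comparisons, and the calls over all genes were 127 in whole DRG, 4 at SNI 1d, 5 at SNI 3d, 1 at SCI 1d, 0 at SCI 3d (12 without the block) and 1 and 0 in SNI against SCI. The numbers are no known pairs: 2 of 8 whole DRG and 17 of 22 FACS mice correlated best with their own number. Within the FACS set the number also parted the mice with Y-linked reads from those without, so there the block cannot be told apart from that difference. Over all settings the calls over all genes ran from 23 to 929 in whole DRG and from 0 to 1463 at SNI 1d. Of the 57 members 24 had at least 20 reads in all 22 sorted mice, and why the others fell below was not tested.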

Other observations

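Of the X-linked members Hdac6 had a median of 23.7 CPM in the 9 sorted mice with Y-linked reads and 28.6 CPM in the 13 without, Hdac8 11.7 and 11.2 CPM, Kdm5c 23.4 and 24.2 CPM and Kdm6a 9.93 and 14.98 CPM.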
